A study of Homo sapiens with 12 samples.

Results

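Mitochondrial ribosomal proteins are encoded here by the 78 genes whose symbol starts with MRPL or MRPS followed by a digit, out of 19771 genes in the deposited table of protein-coding genes. RNA was sequenced from TE-1, a human oesophageal cancer cell line grown in DMEM with 10% FBS, 48 h after transfection of a vector meant to change the level of the interferon-induced gene IFI6. There were 4 groups of 3 libraries: OE_IFI6, which carried the vector that overexpresses IFI6, its control OE_control, sh_IFI6, which carried the vector that interferes with IFI6, and its control sh_control. All of them are TE-1 cells after a transfection, and the study has no untransfected cells among the groups used here. Whether the replicate libraries were grown as separate cultures is not stated, so each p-value measures only the spread between libraries, which may be technical.

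The mitochondrial ribosome translates the few messages of the mitochondrial genome, all of which encode subunits of the respiratory chain and ATP synthase. Its ribosomal RNAs come from mitochondrial DNA, whereas its proteins are encoded in the nucleus, made in the cytosol and imported. Many of its proteins have bacterial counterparts, and others are found only in mitochondria. Of the 78 genes, 51 encode proteins of the large subunit and 26 of the small subunit. MRPS18A and MRPS30 are counted in the large subunit, where their proteins sit in spite of their names. MRPS36 is counted in neither, because its protein is a component of the 2-oxoglutarate dehydrogenase complex.

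IFI6 followed the labels in its direction. It had 309, 268 and 358 FPKM (fragments scaled to transcript length and to sequencing depth) in OE_IFI6, against 27.3, 17.9 and 28.8 FPKM in OE_control. In sh_IFI6 it had 15.1, 13.9 and 14.7 FPKM, against 24.9, 24.1 and 21.2 FPKM in sh_control. Neither pair of groups overlapped, but the knockdown of -0.64 on the log2 scale missed the threshold over all genes (limma adjusted p = 0.82). Of 7 epithelial markers only KRT8 and KRT18 had a mean of at least 1 FPKM, with EPCAM and KRT5 listed at 0 in every library. Of 7 mesenchymal markers VIM lay between 361 and 671 FPKM. The others, COL1A1, COL1A2, COL3A1, DCN, LUM and PDGFRB, were low, with means of at most 2.14 FPKM (COL1A1). Of 7 immune and endothelial markers only CD68 reached a mean of 1 FPKM. The FPKM of all protein-coding genes added up to between 325877 and 357145 in a library. The number of fragments behind these values is unknown.

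The 13 short sequences that follow show a feature that the choice of genes did not use, the letters AAGATGGCG, a core of the binding motif of the transcription factor YY1. RefSeq (GRCh38.p14) gave 85 promoters for 69 of the 78 genes, each running from 250 bases before to 50 after a transcription start. Among them 13 (15.3%) held these letters on either strand, against 3.7% of 12765 promoters of tested genes and 1.7% of 35116 promoters in the table. In the sites shown, 11 of 13 had the letters on the strand of the gene, and in 9 of these the letters began 7 to 24 bases past the start. The letters contain ATG, the usual start codon, so sites past the start may also belong to a coding sequence. That was not checked, and neither was binding of YY1. MRPL52 had the motif in 2 places before its start, and the site of 1 further member is not shown, so the lines cover 12 of the 13 members with the letters. Each line gives the motif in capitals with 10 bases on either side, read on the strand that carries it.
MRPL32, chr7:42932143-42932171: tcttcgggtaAAGATGGCGgagcgcgggt
MRPL36, chr5:1799855-1799883: gccaggaaggAAGATGGCGgcgggggggg
MRPL38, chr17:75904860-75904888: ggccggagggAAGATGGCGgcgccctggt
MRPL42, chr12:93467512-93467540: ggattgaaacAAGATGGCGggttcgtggt
MRPL46, chr15:88467362-88467390: gggagaacgaAAGATGGCGgcgcccgtaa
MRPL50, chr9:101398577-101398605: gatctcatcgAAGATGGCGgcgcgatctg
MRPL52, chr14:22829779-22829807: acgatgacccAAGATGGCGgagccgtgat
MRPL52, chr14:22829813-22829841: acccagattcAAGATGGCGacttcctgct
MRPS10, chr6:42217834-42217862: cgggaccggcAAGATGGCGgcgcggacag
MRPS18A, chr6:43687764-43687792: taggtttttgAAGATGGCGgccctcaagg
MRPS18B, chr6:30617853-30617881: ggcgtacgtcAAGATGGCGgcgtctgtat
MRPS24, chr7:43869480-43869508: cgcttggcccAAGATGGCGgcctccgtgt
MRPS30, chr5:44808950-44808978: atcgcgggcaAAGATGGCGgcggccaggt

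A second run of letters was frequent in these promoters as well. CCGGAAG, a core of the sites of ETS factors such as GABPA, stood on either strand in 38.8% of the 85 promoters, against 18.0% of promoters of tested genes and 10.3% of all promoters. It can share the letters AAG with the YY1 motif. CGCATGCG, part of the NRF1 site, was in 3.5% of them, against 3.4% of promoters of tested genes and 2.0% of all promoters. The E-box CACGTG was in 10.6%, against 9.7% and 7.3% in those sets. TATAAA was in 3.5%, against 5.7% and 11.5%. The members' promoters had a median of 23 CpG in 300 bases, against 26 for tested genes and 14 for all promoters. Members with the YY1 letters had a median log2 fold change between OE_IFI6 and OE_control of 0.14 (13 members), against 0.11 without them (56 members), and the medians were 0.10 with the ETS letters (30 members) and 0.16 without (39 members).

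All 78 genes were expressed. All 78 passed the filter for testing, a 12-library mean of 1 FPKM or more, as did 10925 of the 19771 genes. Their median level was 24.9 FPKM, against 9.65 FPKM over all tested genes. The highest mean levels were those of MRPL37 (187 FPKM), MRPS18B (176 FPKM) and MRPL12 (142 FPKM), whose protein forms the flexible stalk that recruits translation factors. MRPS27 followed with 98.5 FPKM and MRPS34 with 94.9 FPKM. The lowest were MRPL1 (2.10 FPKM), a counterpart of the bacterial protein of the L1 stalk, MRPL53 (2.33 FPKM), MRPL20 (2.61 FPKM), MRPS36 (3.03 FPKM) and MRPL30 (3.22 FPKM). By position 38 of the 78 members overlap a protein-coding gene, among them MRPL37, MRPS18B, MRPL12, MRPS27, MRPL53 and MRPL30. On the same strand, MRPL12 overlaps AC139530.2 over 4156 bases and MRPL30 overlaps AC079447.1 over 16548 bases. How reads were divided among overlapping genes is not known, so the levels of such members and their ranks are uncertain.

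From MRPL1 to MRPL37 the RNA levels, which are per unit of length, spanned 89.0 times. Because MRPL37 overlaps a protein-coding gene, the size of this span is uncertain too. Means lay above 50 FPKM in 15 members and below 5 FPKM in 7. The median over the large subunit was 26.1 FPKM (51 genes) and over the small subunit 21.3 FPKM (26 genes). The 3 paralogs of bacterial S18 also differed widely in level. MRPS18B averaged 176 FPKM, MRPS18A 25.1 FPKM and MRPS18C 7.34 FPKM, and their ranges over the 12 libraries did not overlap.

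**Figure D1:**
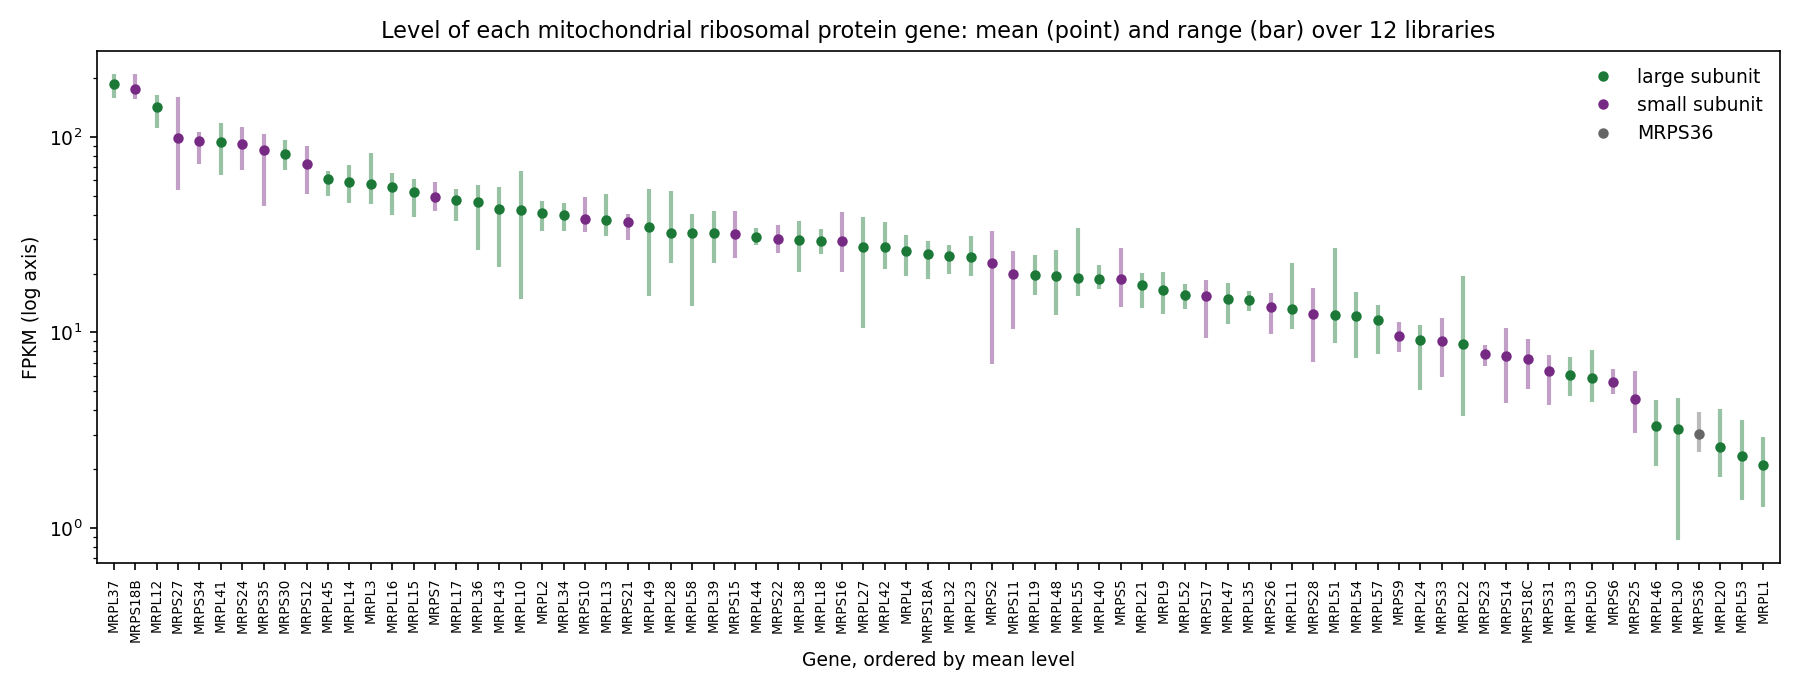
Mean FPKM over 12 libraries (point, log axis) and the range from the lowest to the highest library (bar) for each of the 78 genes, ordered by mean and coloured by subunit. MRPL37 stands highest at 187 FPKM and MRPL1 lowest at 2.10 FPKM, and the bars of MRPL30, MRPL22, MRPS2 and MRPL10 are among the longest.

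Together the members made up 0.707% to 0.840% of the summed FPKM of protein-coding genes in a library. Their sum was 2765 ± 183 FPKM in OE_IFI6, against 2604 ± 221 FPKM in OE_control, and 2812 ± 48.0 FPKM in sh_IFI6, against 2655 ± 93.0 FPKM in sh_control (SD, n = 3 each). As a share of the summed FPKM they made up 0.814% ± 0.0223 in OE_IFI6, against 0.748% ± 0.0419 in OE_control, and here the libraries did not overlap (lowest 0.799% in OE_IFI6, highest 0.791% in OE_control). The OE_control library at 0.791% is OE_control 1, and leaving out OE_control 2 could not have made the groups overlap. The shares in OE_IFI6 overlapped those in sh_control (0.771% to 0.824%). The share was 0.820% ± 0.0188 in sh_IFI6, against 0.797% ± 0.0263 in sh_control, and there the libraries overlapped (lowest 0.804% in sh_IFI6, highest 0.824% in sh_control). With 3 libraries against 3 an exact permutation test cannot go below p = 0.1, and none was run. The ratio of the large to the small subunit sum was 1.74 ± 0.107 in OE_IFI6, against 1.62 ± 0.115 in OE_control. It was 1.70 ± 0.0871 in sh_IFI6, against 1.82 ± 0.0765 in sh_control. The lowest and highest libraries of OE_IFI6 overlapped those of OE_control in the sum and in the ratio. The same held for the ratio between sh_IFI6 and sh_control, whereas their sums did not overlap (2768 to 2863 FPKM in sh_IFI6, against 2567 to 2753 FPKM in sh_control).

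One library stood apart for these genes. In OE_control 2, 35 of the 78 members (44.9%) had their lowest value of the 12 libraries, against 10.8% of all tested genes. Both subunits took part, with 47.1% of the large and 38.5% of the small subunit genes. The same was true of 54.3% of 81 cytosolic ribosomal protein genes and of 25% of 80 nuclear genes of the respiratory chain and ATP synthase. In that library the members lay at a median of -0.22 (log2) from their 12-library means, while all tested genes lay at 0.01. Each call of a gene against OE_control, or of OE_control against sh_control, is therefore given with and without that library below.

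The other 2 libraries of OE_control did not share this. Their median deviations were 0.03 and -0.00, and each held the lowest value of 5 members. Over all tested genes the 3 libraries of OE_control did lie together, at -30.6, -22.2 and -22.3 on the first principal component, against 5.89 to 11.3 for the other 9 libraries. The part of that separation in the members' differences was not tested.

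**Figure D2:**
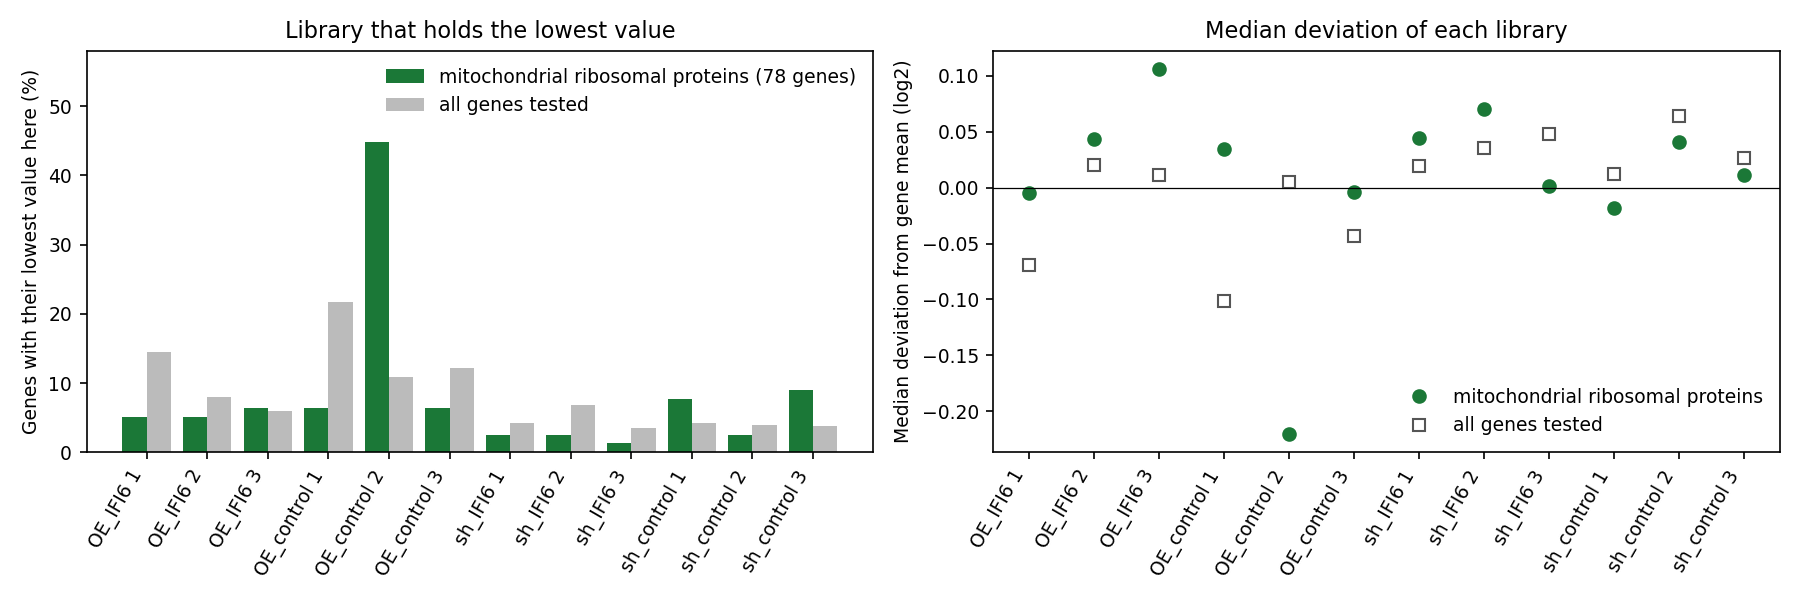
Left, the share of the 78 members (green) and of all tested genes (grey) that have their lowest value in each library, in percent. Right, the median deviation of both sets from each gene's mean over the libraries, on the log2 scale. OE_control 2 holds the lowest value of 44.9% of the members against 10.8% of all tested genes, and its median deviation is -0.22.

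Whether overexpressed IFI6 went with other levels of mitochondrial ribosomal protein RNA was asked by OE_IFI6 against OE_control. The members higher in OE_IFI6 were MRPL58, MRPS17, MRPS12, MRPL16 and MRPL15, and 0 members were lower. That is 5 of 78 (6.41%) called higher, against 4.1% of all tested genes, and 0 called lower, against 3.56% of all tested genes, a share near the background. A call is a Benjamini-Hochberg adjusted p under 0.05 over the 10925 genes in limma's moderated test of log2(FPKM + 1). At an unadjusted p under 0.05 there were 12 members higher and 3 lower, against 13.5% and 9.92% of all tested genes. The members' median log2 fold change was 0.11, against 0.05 for all tested genes. Without OE_control 2 that order turned round, with a median of 0.05 for the members, against 0.07 for all tested genes.

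MRPL58 (ENSG00000167862, chromosome 17, 75012670 to 75021261) showed the widest change. Its protein, also known as ICT1, is a peptidyl-tRNA hydrolase built into the large subunit that releases chains from stalled mitochondrial ribosomes. It had 32.4, 37.1 and 39.7 FPKM in OE_IFI6, against 22.1, 13.7 and 21.1 FPKM in OE_control. The groups did not overlap, and OE_control 2 was the lowest of all. It differed by 0.93 on the log2 scale (SE 0.16; limma adjusted p = 0.0052), and 0.72 without OE_control 2 (adjusted p = 0.0067). The hairpin groups resembled OE_IFI6, with 40.4, 35.0 and 37.1 FPKM in sh_IFI6 and 34.6, 37.6 and 37.4 FPKM in sh_control.

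MRPS17 and MRPS12 were the small subunit genes that were higher. MRPS17 (ENSG00000239789, chromosome 7, 55951877 to 55956500), a counterpart of bacterial S17, had 17.8, 17.0 and 18.5 FPKM in OE_IFI6, against 13.1, 9.36 and 11.04 FPKM in OE_control. All 3 libraries of OE_IFI6 lay above OE_control, by 0.64 on the log2 scale (SE 0.12; limma adjusted p = 0.0086; 0.53 and 0.026 without OE_control 2). The gene overlaps NIPSNAP2 over 4683 bases and AC092647.5 over 3421 bases on the same strand, and how reads were divided among them is not known, so its level is uncertain.

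MRPS12 (ENSG00000128626, chromosome 19, 38930548 to 38933162) encodes a protein of the decoding centre. It had 81.9, 76.3 and 89.6 FPKM in OE_IFI6, against 64.6, 51.2 and 60.6 FPKM in OE_control. Here too the groups were apart, by 0.49 on the log2 scale (SE 0.11; limma adjusted p = 0.017; 0.39 and 0.044 without OE_control 2). It overlaps SARS2, the mitochondrial seryl-tRNA synthetase gene, over 349 bases and the protein-coding annotation AC011455.2 over 2615 bases, the whole of its span, both on the opposite strand. Without knowledge of strand use the reads of these genes cannot be told apart, so its level is uncertain.

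MRPL16 and MRPL15 encode large subunit proteins with bacterial counterparts. MRPL16 (ENSG00000166902, chromosome 11, 59806140 to 59810778) had 57.99, 56.8 and 65.4 FPKM in OE_IFI6, against 46.4, 40.0 and 44.7 FPKM in OE_control. It differed by 0.45 on the log2 scale (SE 0.10; limma adjusted p = 0.017), and 0.39 without OE_control 2 (adjusted p = 0.047). MRPL15 (ENSG00000137547) had 57.2, 61.1 and 60.7 FPKM in OE_IFI6, against 44.0, 38.8 and 42.4 FPKM in OE_control. That is 0.51 on the log2 scale (SE 0.12; limma adjusted p = 0.025). The MRPL15 call ended without OE_control 2 (0.46, adjusted p = 0.066), OE_control 3 (0.061), OE_IFI6 2 (0.071) or OE_IFI6 3 (0.051).

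All 5 calls ended when only the 6 libraries compared were fitted, with adjusted p from 0.064 for MRPL58 to 0.16 for MRPL16, in a fit that called 1.53% of all tested genes.

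**Figure D3:**
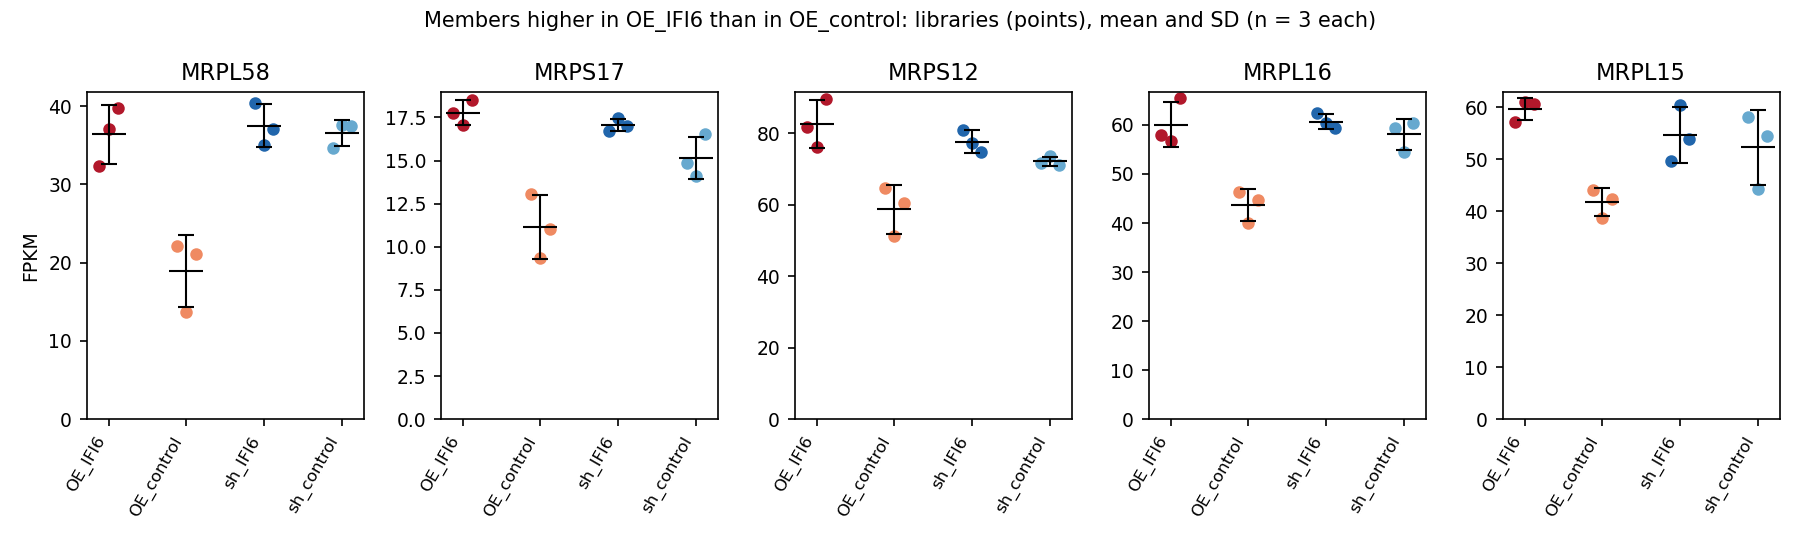
FPKM of the 5 members that were higher in OE_IFI6 than in OE_control, in each library of the 4 groups (points), with the group mean and SD (n = 3 each). In each panel the 3 OE_control libraries are the lowest of the 12, and the other 9 lie above them.

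In these 5 genes the 3 libraries of OE_control lay below all 9 others. This was so for 8 members in all, the others being MRPS23, MRPS30 and MRPS31, and for 8.16% of all tested genes. The reverse, OE_control above all others, held for MRPS10 alone among the members and for 5.01% of all tested genes. No member had its 3 OE_IFI6 libraries above or below all others, against 0.394% and 1.06% of all tested genes, and MRPL2 alone had its sh_IFI6 libraries above all others (1.64% of all tested genes).

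The bases before the starts of called genes are shown because these genes were called in the same comparison, at a share near the background. No feature shared by them was tested. They are the 150 bases before the RefSeq start (GRCh38.p14) on the strand of the gene, with the ETS core in capitals where it was found.
MRPL58, chr17:75012520-75012669, plus strand: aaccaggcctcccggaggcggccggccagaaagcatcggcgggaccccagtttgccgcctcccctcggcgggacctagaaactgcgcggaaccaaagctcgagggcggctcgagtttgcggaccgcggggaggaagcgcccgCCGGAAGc
MRPS17, chr7:55951727-55951876, plus strand: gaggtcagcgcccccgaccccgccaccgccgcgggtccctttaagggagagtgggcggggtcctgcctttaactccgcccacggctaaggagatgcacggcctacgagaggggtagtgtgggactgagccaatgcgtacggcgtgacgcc
MRPS12, chr19:38930804-38930953, plus strand: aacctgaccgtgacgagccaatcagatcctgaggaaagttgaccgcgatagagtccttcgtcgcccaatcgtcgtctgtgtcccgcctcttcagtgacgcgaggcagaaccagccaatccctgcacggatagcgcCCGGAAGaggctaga
MRPL16, chr11:59810779-59810928, minus strand: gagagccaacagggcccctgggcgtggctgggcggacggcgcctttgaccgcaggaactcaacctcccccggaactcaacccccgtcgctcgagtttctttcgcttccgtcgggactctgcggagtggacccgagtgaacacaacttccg
The ETS core stood before the start of MRPL58 and before the MRPS12 start shown. The 150 bases before another RefSeq start of MRPS12 (chr19:38930794-38930943) end within those letters and do not hold them in full, nor do the windows of MRPS17 and MRPL16. The YY1 letters were in none of the windows shown, and the window of MRPL15 is not shown. These windows end before the start, and 9 of the 13 YY1 sites printed earlier lay past it. They are also shorter than the promoters behind the shares given earlier. Whether these genes lack the YY1 letters thus cannot be read from them.

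Groups did not overlap in 13 members that were higher in OE_IFI6 and in 3 that were lower, against 13.5% and 9.78% of all tested genes. The higher ones that missed the threshold were MRPL11, MRPL36, MRPS31, MRPS26, MRPS30, MRPL17, MRPL32 and MRPS23, with log2 fold changes from 0.20 to 0.49. The lower ones were MRPS6, MRPS10 and MRPS14. MRPS14, a counterpart of bacterial S14, had 4.36, 6.90 and 6.49 FPKM in OE_IFI6, against 8.09, 8.86 and 8.30 FPKM in OE_control, a log2 fold change of -0.47 (limma adjusted p = 0.20). In all, 52 of 78 members had a log2 fold change above 0 (56.6% of all tested genes did).

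The other members at the ends of the ranking varied widely within groups. MRPL30 had 4.46, 2.90 and 4.62 FPKM in OE_IFI6, against 3.69, 2.78 and 0.872 FPKM in OE_control, and its log2 fold change of 0.62 missed the threshold (limma adjusted p = 0.21). MRPL11, whose protein lies at the base of the stalk, had 13.4, 22.7 and 13.1 FPKM in OE_IFI6, against 10.5, 10.4 and 12.2 FPKM in OE_control (0.49, adjusted p = 0.16). MRPL10, whose protein anchors MRPL12 in that stalk, had 20.6, 54.6 and 27.0 FPKM in OE_IFI6, against 66.7, 52.8 and 38.1 FPKM in OE_control. These values overlapped, and the log2 fold change of -0.69 carried an SE of 0.53 (adjusted p = 0.48). MRPS27, an RNA-binding pentatricopeptide repeat protein gene, had 53.6, 54.0 and 160 FPKM in OE_IFI6, against 137, 145 and 55.4 FPKM in OE_control (-0.41, adjusted p = 0.67). MRPL20 and MRPL38 differed by -0.31 and -0.30, with overlapping libraries (adjusted p = 0.44 and 0.41).

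**Figure D4:**
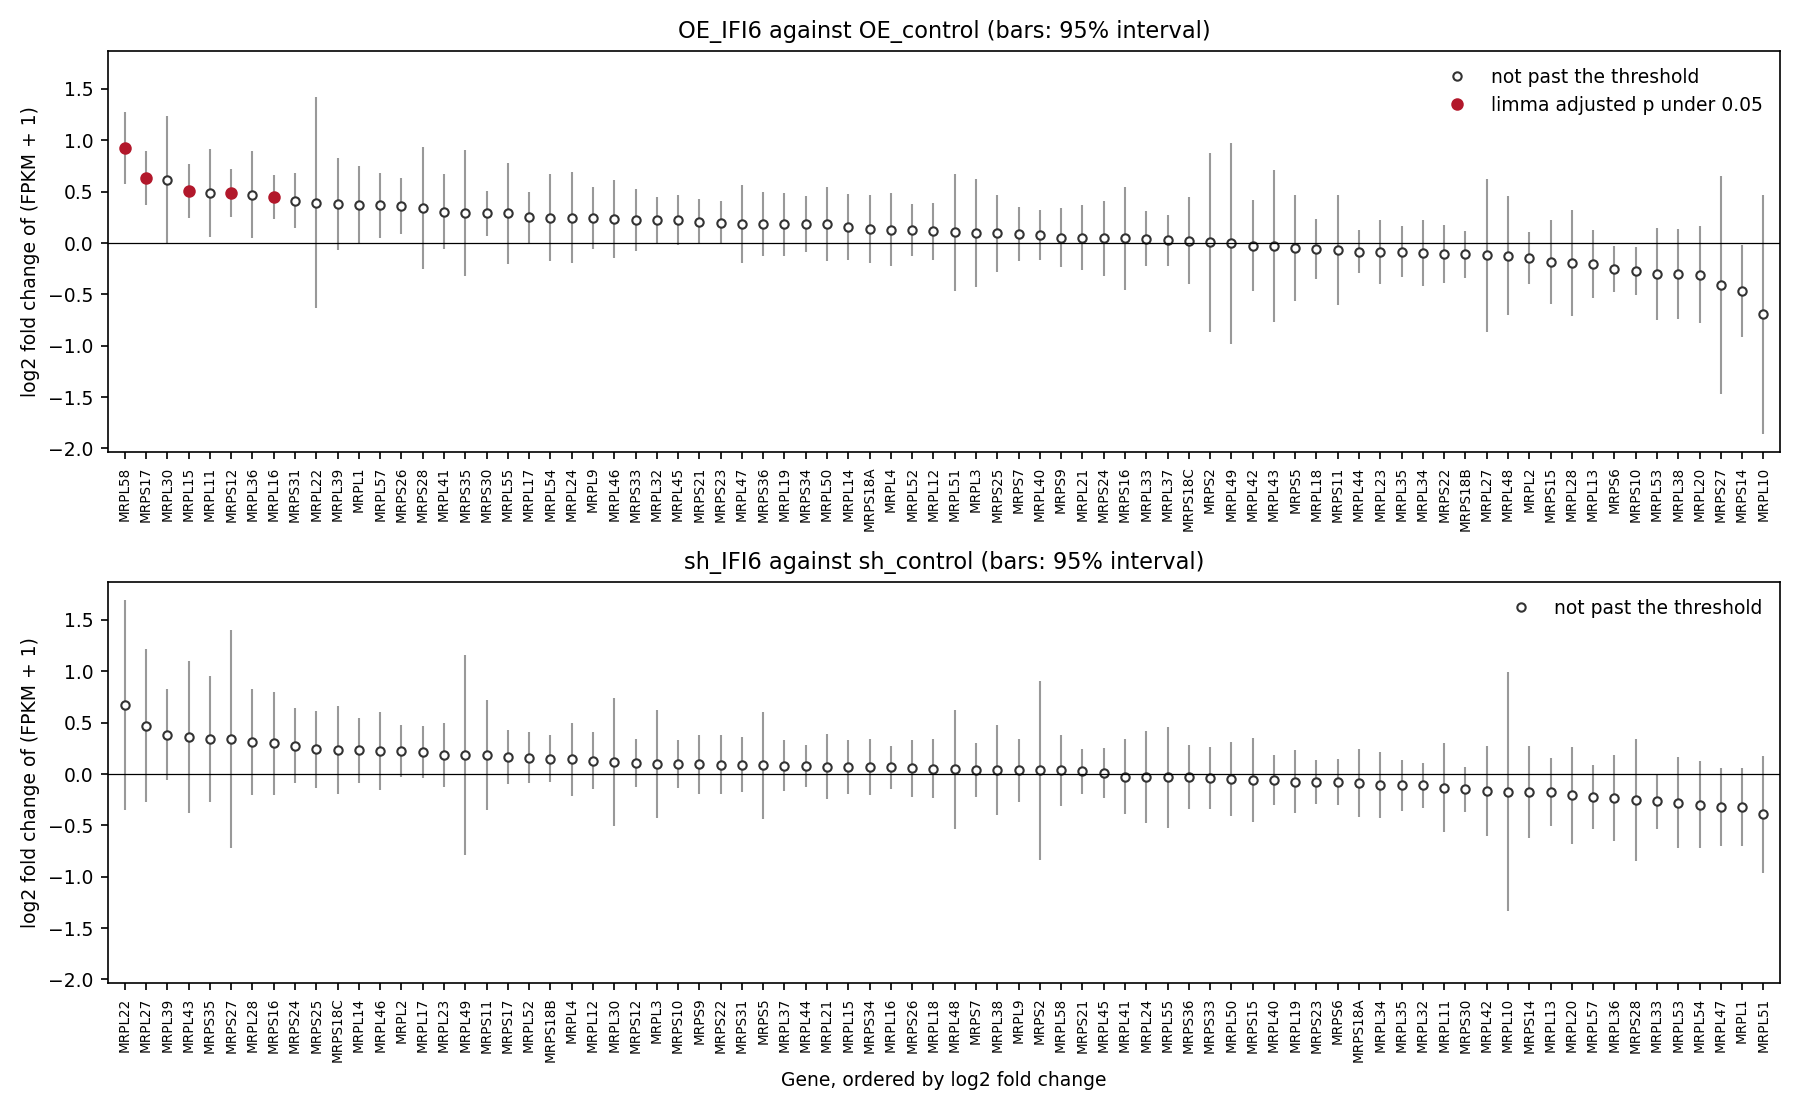
Log2 fold change of (FPKM + 1) with its 95% interval for the 78 members, in OE_IFI6 against OE_control (upper) and sh_IFI6 against sh_control (lower), each ordered by size; filled points passed the threshold. The 5 filled points of the upper panel lie between 0.45 and 0.93, and the lower panel has none.

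Knockdown was addressed by sh_IFI6 against sh_control. No member was called (0 of 78, against 0% of all tested genes by limma), and 0 members had an unadjusted p under 0.05, against 5.15% of all tested genes. The median log2 fold change was 0.05 over the members, against 0.00 over all tested genes. It lay above 0 in 47 members, against 50.9% of all tested genes, and 77 of 78 lay within 0.5 of 0. The libraries of sh_IFI6 lay above those of sh_control in 7 members and below them in 2, against 9.46% and 9.61% of all tested genes.

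The 5 highest values belonged to MRPL22, MRPL27, MRPL39, MRPL43 and MRPS35, from 0.67 to 0.34, and the 5 lowest to MRPL51, MRPL1, MRPL47, MRPL54 and MRPL53, from -0.39 to -0.28. Adjusted p lay at 0.82 or above in all 10. MRPL22, whose bacterial counterpart lines the exit tunnel, had 18.8, 10.7 and 4.39 FPKM in sh_IFI6, against 3.73, 6.85 and 7.33 FPKM in sh_control, and the groups overlapped. MRPL39 had 32.4, 36.3 and 36.1 FPKM in sh_IFI6, against 31.9, 25.3 and 23.2 FPKM in sh_control, without overlap (0.38, limma adjusted p = 0.82). MRPL51 had 12.7, 12.1 and 10.0 FPKM in sh_IFI6, against 11.4, 11.8 and 27.0 FPKM in sh_control, where 1 library stood high. MRPL1 had 1.71, 2.20 and 1.97 FPKM in sh_IFI6, against 2.77, 2.94 and 2.39 FPKM in sh_control, without overlap (-0.32, adjusted p = 0.82).

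The 5 members called in the overexpression comparison differed little here. Their log2 fold changes between sh_IFI6 and sh_control were 0.04 for MRPL58 (95% interval -0.31 to 0.38), 0.16 for MRPS17 (-0.10 to 0.43), 0.10 for MRPS12 (-0.13 to 0.34), 0.06 for MRPL16 (-0.15 to 0.28) and 0.07 for MRPL15 (-0.19 to 0.33). The difference between the overexpression and the knockdown effect was tested as its own contrast. It called 0 members (2.69% of all tested genes), with 13 at an unadjusted p under 0.05 (18.9% of all tested genes). For MRPL58 that difference was 0.89 (SE 0.23; limma adjusted p = 0.062).

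The controls were set side by side as OE_control against sh_control. MRPL58 and MRPL16 were lower in OE_control, 2 of 78 members against 4.78% of all tested genes, and 0 were higher, against 2.75% of all tested genes. MRPL58 differed by -0.94 (SE 0.16; limma adjusted p = 0.0054), and by -0.73 without OE_control 2 (adjusted p = 0.0068). MRPL16 differed by -0.40 (SE 0.10; adjusted p = 0.029). It missed the threshold without OE_control 2 (-0.34, adjusted p = 0.068), OE_control 3 or any 1 of the sh_control libraries (adjusted p from 0.061 to 0.11). At an unadjusted p under 0.05 there were 15 members, against 24.4% of all tested genes. OE_IFI6 against sh_control called 0 members (0.0183% of all tested genes), with 4 at an unadjusted p under 0.05, against 4.6% of all tested genes. There the 5 genes had log2 fold changes of -0.01 for MRPL58, 0.22 for MRPS17, 0.19 for MRPS12, 0.05 for MRPL16 and 0.19 for MRPL15 (adjusted p = 0.999 in each). These comparisons share control libraries with those above, so they are not independent of them.

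Between libraries the members moved by a median of 1.74 times from the lowest to the highest. The ratio exceeded 2 in 28 members (35.9%, against 41.4% of all tested genes) and stayed under 1.5 in 21 (26.9%, against 17.3%). MRPL44, which carries an RNase III-like fold, was among the steadiest, from 27.9 to 34.3 FPKM over the 12 libraries (1.23 times). The widest were MRPL30 (5.30 times), MRPL22 (5.20 times), MRPS2 (4.83 times), MRPL10 (4.48 times) and MRPL27 (3.66 times).

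A gene's deposited value is the sum of its transcripts, and the members differed in how that sum was made up. One transcript carried over 90% of the gene's FPKM in 20 members and under 50% in 23. The members led by 1 transcript varied by a median of 1.61 times between libraries, and 2 of 20 exceeded 2 times. Those whose leading transcript carried under 50% varied by a median of 2.16 times, and 15 of 23 exceeded 2 times. The 35 members between them lay at 1.74 times. These are descriptions over genes, which share libraries.

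MRPL10 shows how far the assignment could move. MRPL10-202 carried 13.1, 0.905 and 14.9 FPKM in OE_IFI6, against 66.3, 52.4 and 2.48 FPKM in OE_control. In OE_IFI6 2 and sh_IFI6 3 the gene was instead assigned to MRPL10-201, with 53.4 and 55.1 FPKM, and in OE_control 3 to MRPL10-203, with 32.3 FPKM. The share of MRPL10-202 thus lay anywhere from 1.66% to 99.4% over the 12 libraries, and from 6.52% to 99.4% within OE_control. MRPS27 did the same: MRPS27-202 held 104 FPKM in OE_IFI6 3 and 63.3 FPKM in OE_control 2, and at most 12.1 FPKM in the other libraries. In MRPL22, MRPL22-204, a transcript of 511 bases outside the deposited table of protein-coding transcripts, was listed at 15.2 FPKM in OE_IFI6 2 and 15.3 FPKM in sh_IFI6 1, the libraries with the gene's highest levels, and at 0 in the other 10.

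The genes called in the overexpression comparison were mostly led by 1 transcript. MRPL58-201 carried 95.9% of its gene on average, MRPS17-201 99.9%, MRPL16-201 96.3% and MRPL15-201 89.1%. MRPS12 was split between MRPS12-201 (58.6%) and MRPS12-202 (33.3%). Tested as transcripts, 2 of 147 member transcripts were higher in OE_IFI6 and 0 lower, against 0.857% and 0.875% of 17030 transcripts tested. They were MRPL58-201 (0.92, limma adjusted p = 0.034) and MRPS17-201 (0.63, adjusted p = 0.043). Without 1 library these calls fell to 0 or 1 (0 without OE_IFI6 1, 2 or 3 or OE_control 3, and 1 without OE_control 2), except without OE_control 1.

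No member transcript was called between sh_IFI6 and sh_control (9 had an unadjusted limma p under 0.05, against 5.17% of all transcripts), where 0.0176% of all transcripts were called higher and 0.00587% lower. Between OE_control and sh_control, MRPL58-201 was lower (-0.95, limma adjusted p = 0.026) and MRPL23-203 higher (1.91, adjusted p = 0.033), against 0.81% and 0.734% of all transcripts. MRPL23-203 had 4.23, 2.26 and 4.12 FPKM in OE_control, against 0.178, 0.0552 and 0.313 FPKM in sh_control. Without sh_control 1 or 3 neither call held, and 1 call was made without OE_control 1, OE_control 3 or sh_control 2.

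The 5 members of at least 5 FPKM whose leading transcript differed most in its share between OE_IFI6 and OE_control were MRPL11, MRPL10, MRPL18, MRPS14 and MRPL22. MRPL11-201 averaged 25.1% of its gene in OE_IFI6, from 17.2% to 37.2%, against 58.7% in OE_control, from 27.4% to 93.2%. MRPL18-201 averaged 82.4% in OE_IFI6, from 79.8% to 83.7%, against 55.4% in OE_control, from 32.4% to 80.6%. In MRPL11 and MRPL18 the ranges of both groups met, and the shares were not tested.

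The genes are scattered over 21 chromosomes, with at most 8 on any of them. A coding gene started in the opposite direction within 1000 bases of 18 members (23.1%), against 11.9% of 10900 tested genes (GENCODE release 29). MRPL46 and MRPS11 start 34 bases apart on chromosome 15, so 1 such pair holds a gene of each subunit. Between OE_IFI6 and OE_control they differed by 0.24 for MRPL46 (SE 0.17) and -0.07 for MRPS11 (SE 0.24), and between sh_IFI6 and sh_control by 0.22 and 0.18. None of these passed the threshold, and the genes were not tested against each other. The protein-coding annotation AC013489.1 overlaps MRPL46 over 7919 bases on the same strand and MRPS11 over 13321 bases on the opposite strand. How reads were divided among them is not known, so the levels of MRPL46 and MRPS11 are uncertain. MRPL36 faces NDUFS6 and MRPL47 faces NDUFB5, both genes of respiratory complex I, at 34 and 36 bases. Of 75 pseudogenes named after 34 of the members, 51 were listed at 0 in every library and only MRPL45P2 (7.97 FPKM) and MRPS31P4 (3.43 FPKM) averaged at least 1 FPKM.

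In all, 6 more genes encode proteins of the mitochondrial ribosome, or its membrane anchor, under other symbols. CHCHD1, a small subunit protein, was higher in OE_IFI6, at 5.39, 5.82 and 6.55 FPKM, against 2.11, 2.83 and 2.47 FPKM in OE_control. These groups were far apart, by 0.998 on the log2 scale (SE 0.15; limma adjusted p = 0.0021; 1.07 and 0.0052 without OE_control 2). Between sh_IFI6 and sh_control it differed by 0.14 (adjusted p = 0.86). In OE_control against sh_control it was lower (-0.95, adjusted p = 0.0036; -1.02 and 0.0072 without OE_control 2). The other 5 genes, DAP3, PTCD3, AURKAIP1, GADD45GIP1 and OXA1L, missed the threshold in OE_IFI6 against OE_control, and the list's median there was 0.16.

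Of 27 assembly and rRNA modification factors, 2 were higher in OE_IFI6 and 0 lower, against 4.1% and 3.56% of all tested genes. The median of the list was 0.18, against 0.05 over all tested genes. At an unadjusted limma p under 0.05 there were 9 of the 27, against 13.5% higher and 9.92% lower of all tested genes. MALSU1, which keeps the immature large subunit from joining the small one, had 16.9, 15.95 and 15.99 FPKM in OE_IFI6, against 11, 10.3 and 9.96 FPKM in OE_control (0.60, limma adjusted p = 0.0070; 0.59 and 0.021 without OE_control 2). DDX28, an RNA helicase of large subunit assembly, had 13.9, 13.6 and 18.0 FPKM in OE_IFI6, against 9.79, 8.70 and 9.13 FPKM in OE_control (0.66, adjusted p = 0.0077; 0.62 and 0.026 without OE_control 2). Both calls ended when only the compared libraries were fitted (adjusted p = 0.078 and 0.095). Neither pair of groups overlapped, and both genes were lower in OE_control than in sh_control as well, by -0.45 for MALSU1 (adjusted p = 0.028; -0.44 and 0.056 without OE_control 2) and -0.57 for DDX28 (adjusted p = 0.015; -0.54 and 0.040 without it). In that comparison MPV17L2, another assembly factor, was higher (0.54, adjusted p = 0.031; 0.61 and 0.032 without OE_control 2). The MALSU1 and MPV17L2 calls between the controls each ended in 4 of the 6 fits without 1 library, and the DDX28 call in 2 of them.

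Factors that act before and after the ribosome were also compared between OE_IFI6 and OE_control. None of 15 mitochondrial translation factors and none of 10 tested regulators of nuclear genes for mitochondrial proteins passed. In each list 1 gene had an unadjusted limma p under 0.05, against 13.5% higher and 9.92% lower of all tested genes. Of 25 genes of mitochondrial transcription, RNA processing and DNA maintenance, 5 had an unadjusted limma p under 0.05. After adjustment 0 were called higher and 1 was called lower, against 4.1% and 3.56% of all tested genes. It was POLRMT, the mitochondrial RNA polymerase, with 34.1, 37.1 and 42.5 FPKM in OE_IFI6, against 50.6, 50.01 and 52.7 FPKM in OE_control (-0.43, limma adjusted p = 0.022; -0.44 and 0.041 without OE_control 2). For POLRMT the OE_control libraries lay above all 9 others, as in 5.01% of all tested genes. Its OE_IFI6 libraries overlapped those of sh_control, at 40.3, 42.1 and 43.7 FPKM. The POLRMT call ended without OE_IFI6 1, OE_IFI6 2 or OE_control 3 (adjusted p = 0.075, 0.064 and 0.073), or with only the compared libraries (0.18).

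Of 9 tested messages of the mitochondrial genome, 0 passed in OE_IFI6 against OE_control. At an unadjusted limma p under 0.05 there were 0, against 13.5% higher and 9.92% lower of all tested genes. Against sh_control, MT-CO2, MT-CO3 and MT-CYB were lower in OE_control, 3 of 9, against 4.78% of all tested genes. In these 3 genes the sh_control libraries lay above all 9 others, as in 0.595% of all tested genes. In OE_IFI6 against sh_control 0 of the 9 messages were called. There 5 had an unadjusted limma p under 0.05, against 4.6% of all tested genes. The messages were very uneven in level. Their 12-library means were 878 FPKM for MT-CO1, 35.9 FPKM for MT-CO3, 6.84 FPKM for MT-CO2 and 6.04 FPKM for MT-CYB. MT-ND1 at 0.977 FPKM and MT-ATP6, the lowest at 0.184 FPKM, missed the filter and were not tested. How these values relate to the true levels of the messages is not known, so the calls are uncertain. MT-CYB had 3.89, 3.13 and 4.84 FPKM in OE_control, against 7.72, 10.5 and 7.68 FPKM in sh_control (-0.96, limma adjusted p = 0.0094; -0.84 and 0.030 without OE_control 2). The MT-CO2 and MT-CO3 calls (-0.53 and -1.22) each ended in 5 of the 6 fits without 1 library, including that without OE_control 2 (adjusted p = 0.091 and 0.098). In sh_IFI6 against sh_control 0 genes of these 6 lists passed, and 3 assembly factors, 2 genes of transcription and processing and 4 mitochondrial messages had an unadjusted limma p under 0.05, against 5.15% of all tested genes. The 2 mitochondrial ribosomal RNAs, the RNA partners of the proteins described here, stayed at or below 0.278 FPKM (MT-RNR2) and 0.0348 FPKM (MT-RNR1) in the deposited table of all genes, so their level relative to the proteins cannot be read from these libraries.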

How the data were processed

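Total RNA of TE-1 cells was sequenced as 12 libraries in 4 groups of 3, grouped by the labels. The authors deposited FPKM per gene and per transcript; per the submitters' processing notes the tools were HISAT2, StringTie, Cuffdiff and edgeR. Their versions, the genome build, the annotation and the use of strand are not given. Low FPKM values lay on steps, but only 32.0% to 35.5% of them within 0.05 of a whole step, so reads were not recovered, no count test was run and depth is unknown.

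Genes that averaged 1 FPKM or more were tested as log2(FPKM + 1), which understates changes of low genes, in 1 limma 3.58.1 fit of group means (R 4.3.3, trended prior, 8 residual degrees of freedom, two-sided, Benjamini-Hochberg over 10925 genes). The test was checked on simulated data. Named genes are those past the threshold, the 5 highest and 5 lowest by change and by level, the 5 largest shifts of a leading transcript, and the MRPS18 paralogs; others were chosen after their values were seen. The members and lists were chosen with earlier results of these data known. Deposited coordinates of all 78 members overlapped GENCODE release 29 (GRCh38), 35 with the same bounds. Figures used Python with pandas and matplotlib. Alternatives were another pseudocount, filters, scalings, prior, libraries, table and the replicate block.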

Additional observations from a re-analysis of the deposited data

Results flagged for a closer look

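POLRMT, the mitochondrial RNA polymerase gene, was the 1 gene among the members and the mitochondrial lists whose overexpression and knockdown effects differed by the test of the difference itself. That test called 2.69% of all tested genes. POLRMT differed by -0.43 between OE_IFI6 and OE_control and by 0.17 between sh_IFI6 and sh_control. The difference between these effects was -0.60 (SE 0.14; limma adjusted p = 0.044). That call ended in 11 of the 12 fits without 1 library (adjusted p up to 0.12), all but the fit without OE_IFI6 3, and also with the replicate block (0.050) and without limma's trend (0.054). In the hairpin groups POLRMT had 46.1, 48.6 and 47.9 FPKM in sh_IFI6, against 40.3, 42.1 and 43.7 FPKM in sh_control, without overlap. The OE_control libraries lay above those of all other groups, and OE_IFI6 overlapped sh_control.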

How the results depend on the processing

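In OE_IFI6 against OE_control, 5 members were called under a pseudocount of 0.1, no filter, a minimum of 5 FPKM, both other scalings, limma without the trend, the table of all annotated genes and the replicate block, and 0 when only the compared libraries were fitted. Leaving out 1 library gave 4 to 6 calls and a median of 0.05 to 0.18. Between the controls it gave 1 to 3 called members, for the difference of effects 0 to 1, and for member transcripts 0 to 2 in OE_IFI6 against OE_control and 0 to 2 between the controls. The members' median between the controls was -0.06, and 0.032 with median-of-ratios scaling. Member transcripts called in OE_IFI6 against OE_control numbered 4 with a pseudocount of 0.1 and 5 with a minimum of 5 FPKM, and between the controls 1 with either. With the replicate number as a block they numbered 0 in both comparisons, and members called were 5 in OE_IFI6 against OE_control and 3 between the controls. Same-numbered libraries correlated in their deviations at 0.09, 0.25 and 0.12 in the overexpression pair, where each library correlated best with its own number, and at -0.04, -0.01 and -0.03 in the hairpin pair. Between OE_control and sh_control they correlated at 0.20, 0.01 and 0.12, again each best with its own number, a hint from the data at a link that the labels do not state. Since not every pair exceeded 0.1 in any comparison, the numbers were not taken as pairs. The causes of these shifts were not tested. No result changed sign past the threshold in the alternatives run. Values near 1 FPKM rest on few fragments.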
